A study of Mus musculus with 9 samples.

Results

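The 10 genes described here make prostaglandins and leukotrienes: Ptgs1, Ptgs2, Ptges, Ptges2, Ptges3, Hpgds, Tbxas1, Pla2g4a, Alox5 and Alox5ap. They were chosen by name, as the rows of the deposited gene count table whose gene name, without its trailing transcript number, is one of these symbols. All 10 were found, 1 row each, among the 20627 features of the table, and all 10 had enough counts to be tested. RNA came from RAW264.7, a mouse macrophage-like line derived from a tumour induced by Abelson leukaemia virus, so every library comes from 1 transformed line. The 3 groups of 3 libraries were HG-SIG, exposed for 6 h to glucose at 35 mmol/l and also to sitagliptin phosphate, HG, exposed to that glucose concentration for 6 h without the drug, and NC. All carry 1 batch number in the labels. For NC the labels give neither a glucose concentration nor a time, and for sitagliptin no dose. Sitagliptin inhibits dipeptidyl peptidase 4 and lowers blood glucose in type 2 diabetes. Added glucose was shared by HG-SIG and HG, and sitagliptin without added glucose and an osmotic control are not among the groups.

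Prostaglandins and leukotrienes are lipid mediators made from arachidonic acid, which cytosolic phospholipase A2 (Pla2g4a) releases from membrane phospholipids. The cyclooxygenases convert it to prostaglandin H2. Ptgs1 (COX-1) is usually constitutive, whereas Ptgs2 (COX-2) is induced in macrophages by inflammatory stimuli. COX-2 is a target of anti-inflammatory drugs. Terminal synthases then turn prostaglandin H2 into prostaglandin E2, prostaglandin D2 or thromboxane A2, and in a separate branch 5-lipoxygenase (Alox5), helped by its activating protein (Alox5ap), starts leukotriene synthesis.

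Library totals were 28886288 to 30752927 counts in HG-SIG, 23285821 to 29543475 in HG and 25527773 to 31571578 in NC. Levels are CPM, counts scaled to the library total, after TMM adjustment. Fold changes and adjusted p-values come from edgeR's quasi-likelihood test over 13311 genes, and a gene is said to have risen or fallen where its adjusted p was under 0.05. Errors are SD for levels (n = 3 libraries per group) and SE for log2 fold changes. Replicates differed by more than counting noise (2.82 to 9.14 chi-square units per gene, highest between HG replicates 1 and 3). Of 10 macrophage markers 9 had enough counts to be tested. The exception was Mertk, near 0 with 2 counts in HG-SIG, 9 in HG and 10 in NC. Neutrophil, lymphocyte, fibroblast and epithelial markers were at or near 0, with at most 16 counts for any of them in a group of 3 libraries. In bulk RNA, fewer cells of a type and less RNA per cell cannot be told apart.

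In HG-SIG against HG, 8 of the 10 genes passed the test, 1 higher and 7 lower, where 52.5% of all genes passed (25.7% higher and 26.8% lower). The median log2 fold change of the 10 was -0.71, against 0.01 over all genes. In HG against NC, 6 of the 10 passed, 4 higher and 2 lower, where 29.5% of all genes did (14.3% higher and 15.2% lower). The median was 0.04 for the 10 and 0.00 for all genes. In HG-SIG against NC, 8 passed, 2 higher and 6 lower, where 58.6% of all genes did (29.9% higher and 28.7% lower), with medians of -0.37 and 0.02. Each pair of comparisons shares a group of libraries, so they are not independent of each other. Called with an absolute log2 fold change over 1 were 3 members in HG-SIG against HG (5.30% of all genes), 2 in HG against NC (2.85%) and 4 in HG-SIG against NC (8.51%). No library of one group lay within the range of the other for 9 members in HG-SIG against HG (1 higher and 8 lower), where 58.7% of all genes were separated in this way (29.9% higher and 28.8% lower). In HG against NC this held for 7 members (4 higher and 3 lower) and 41.7% of all genes (20.8% in either direction), and in HG-SIG against NC for all 10 (3 higher and 7 lower) and 65.9% of all genes (34.2% higher and 31.7% lower). The macrophage markers mostly fell in the comparisons of HG-SIG: 9 of 9 tested fell against HG, and 0 rose and 8 fell against NC. In HG against NC 2 of them rose and 4 fell, where 4 members rose and 2 fell. The summed level of these markers, with Lyz2 as the largest part, was 5190.5 to 5297.5 CPM in HG-SIG, 9991.8 to 10803 CPM in HG and 11101 to 11575 CPM in NC. Their part in the results was not tested.

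**Figure D1:**
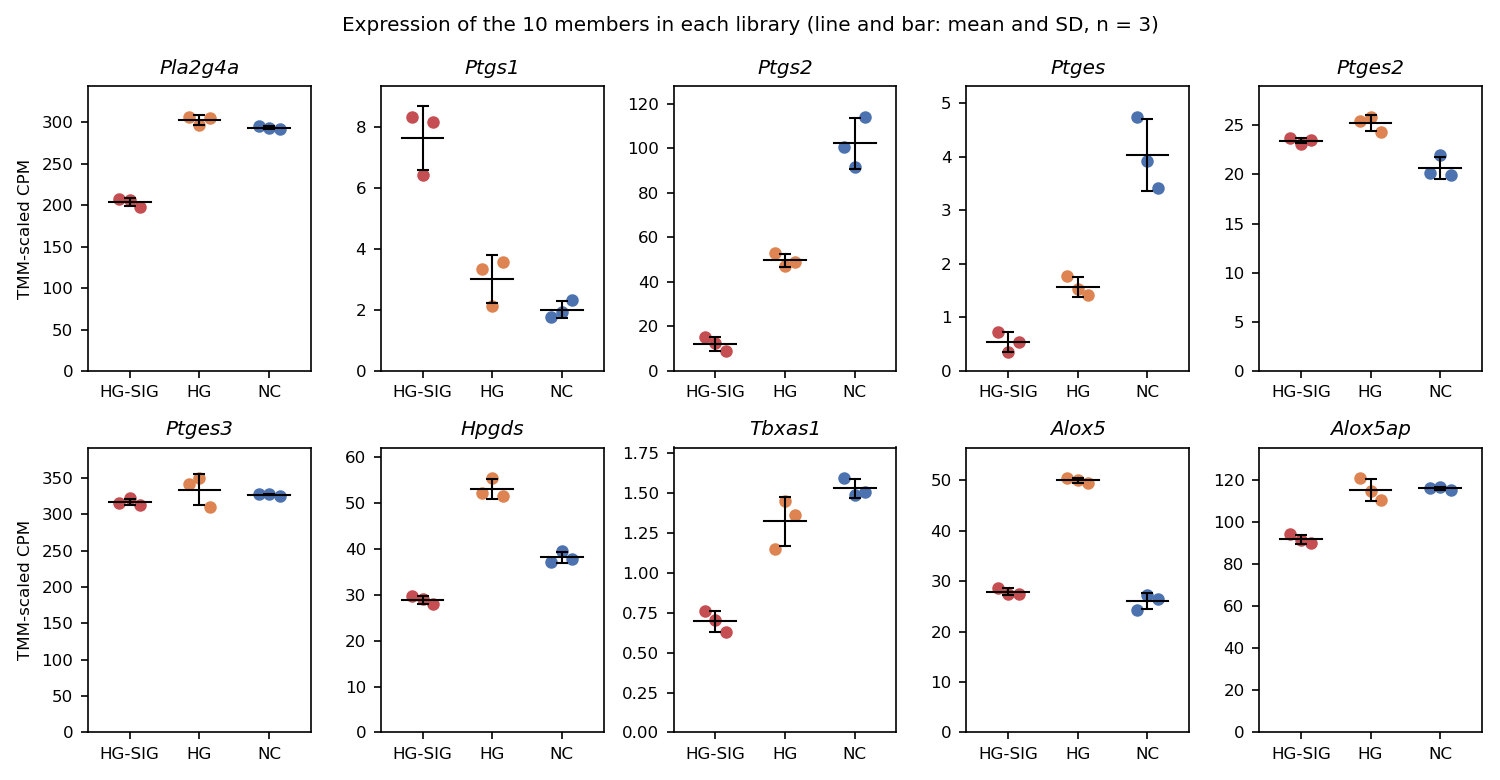
Level of each of the 10 genes in every library (y axis, TMM-scaled CPM from 0, a separate scale per gene; x axis, group). Points are libraries, lines are means and bars are SD with n = 3. Ptgs1 is highest and Ptgs2 lowest in the HG-SIG libraries, while Alox5 stands highest in HG, at 49.4 to 50.4 CPM.

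Pla2g4a (ENSMUSG00000056220, chromosome 1, 149829618 to 149961290 in mm10, minus strand), the phospholipase that supplies arachidonic acid, was lower with sitagliptin. It had 208, 206 and 198 CPM in HG-SIG, 307, 297 and 305 CPM in HG, and 296, 294 and 292 CPM in NC. Every HG-SIG library lay below every library of the other groups, and the HG libraries lay just above those of NC. The log2 fold change was -0.57 ± 0.03 in HG-SIG against HG (adjusted p = 3.5e-08) and -0.53 ± 0.03 against NC (4.1e-08). Limma on log2(TPM + 1) gave -0.36 and -0.29, and library size alone gave -0.34 for HG-SIG against NC, all called. HG against NC gave 0.04 ± 0.03 (adjusted p = 0.358), with a 95% interval of -0.03 to 0.12.

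With sitagliptin the cyclooxygenase genes moved in opposite directions, Ptgs2 lower and Ptgs1 higher. Ptgs2 (ENSMUSG00000032487, chromosome 1, 150100031 to 150108227, plus strand) had 15.3, 12.5 and 8.74 CPM in HG-SIG, 52.9, 47.2 and 49.0 CPM in HG, and 101, 91.6 and 114 CPM in NC. No group overlapped another, and the order was HG-SIG below HG below NC. Ptgs2 fell in each comparison, with log2 fold changes of -2.04 ± 0.14 in HG-SIG against HG, 4.10-fold lower (adjusted p = 1.4e-07), -1.04 ± 0.12 in HG against NC (2.4e-05), and -3.08 ± 0.14 in HG-SIG against NC, 8.44-fold lower (8.3e-10). Only 0.669% of all genes had a log2 fold change as low or lower in HG-SIG against HG. Among the 10 genes the fold changes of Ptgs2 were the lowest in both comparisons of HG-SIG, while in HG against NC Ptges was lower.

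Ptgs1 (ENSMUSG00000047250, chromosome 2, 36230426 to 36252272, plus strand) was scarce, with 264, 200 and 273 counts in HG-SIG, 96, 54 and 81 in HG, and 53, 47 and 69 in NC. These correspond to 8.33, 6.42 and 8.14 CPM in HG-SIG, 3.34, 2.12 and 3.56 CPM in HG, and 1.76, 1.94 and 2.31 CPM in NC. HG-SIG lay above both other groups without overlap, and HG overlapped NC, since HG replicate 2 fell below NC replicate 3. Ptgs1 rose in HG-SIG by 1.35 ± 0.17 on the log2 scale against HG, 2.54-fold (adjusted p = 3.0e-05), and by 1.93 ± 0.18 against NC, 3.80-fold (1.2e-06). HG against NC gave 0.58 ± 0.20 at an adjusted p of 0.0490, a call at the threshold. It was lost without HG-SIG replicate 1 (adjusted p = 0.0591) or 3 (0.0582), HG replicate 1 (0.158) or 3 (0.139), and NC replicate 1 (0.164), 2 (0.110) or 3 (0.0511), with limma on log2(TPM + 1) (0.0560) and with HG and NC fitted alone (0.0701). Platelets are a classical site of COX-1, and of 7 platelet and megakaryocyte markers 4 had values here and 2 had enough counts to be tested: Gp1ba, a subunit of the platelet receptor for von Willebrand factor, rose in HG-SIG against HG (150 counts in HG-SIG and 59 in HG, 1.02 on the log2 scale, adjusted p = 0.00104), and Itga2b gave 0.98 (adjusted p = 0.0658). The summed level of the 4 was 2.12 to 2.21 CPM in HG-SIG, 0.942 to 1.41 CPM in HG and 1.49 to 1.84 CPM in NC, while the defining marker Pf4 had 6 counts in HG-SIG, 11 in HG and 15 in NC. The part of these markers in the rise of Ptgs1 was not tested.

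Expressed per kilobase of annotated exon, so that the genes can be set side by side, Ptgs2 had 2.65 ± 0.716 CPM per kb in HG-SIG, 10.9 ± 0.630 in HG and 22.3 ± 2.50 in NC. Ptgs1 had 1.97 ± 0.271 CPM per kb in HG-SIG, 0.774 ± 0.200 in HG and 0.516 ± 0.0720 in NC. The share of Ptgs1 in the sum of both was 39.1%, 37.8% and 52.4% in the HG-SIG libraries, 6.94%, 5.02% and 7.90% in HG, and 2.02%, 2.44% and 2.33% in NC. In HG-SIG replicate 3 the Ptgs1 level exceeded that of Ptgs2 (2.10 against 1.91 CPM per kb), and in the other 8 libraries Ptgs2 was higher. Before division by length, Ptgs1 had fewer counts than Ptgs2 in that library too (273 against 293). The order per kb there rests on the annotated exon lengths, 3884 bases for Ptgs1 and 4580 for Ptgs2, which may differ from the transcripts in use. The sum itself was 4.62 ± 0.768 CPM per kb in HG-SIG, 11.6 ± 0.773 in HG and 22.8 ± 2.55 in NC. The log2 ratio of Ptgs2 to Ptgs1, which does not depend on library scaling, differed by -3.44 ± 0.34 (SE) between HG-SIG and HG, by -1.60 ± 0.22 between HG and NC, and by -5.03 ± 0.28 between HG-SIG and NC. Groups did not overlap in any of these, and the two-sided exact permutation test gave p = 0.1 for each, the smallest p that 3 against 3 libraries allow.

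**Figure D2:**
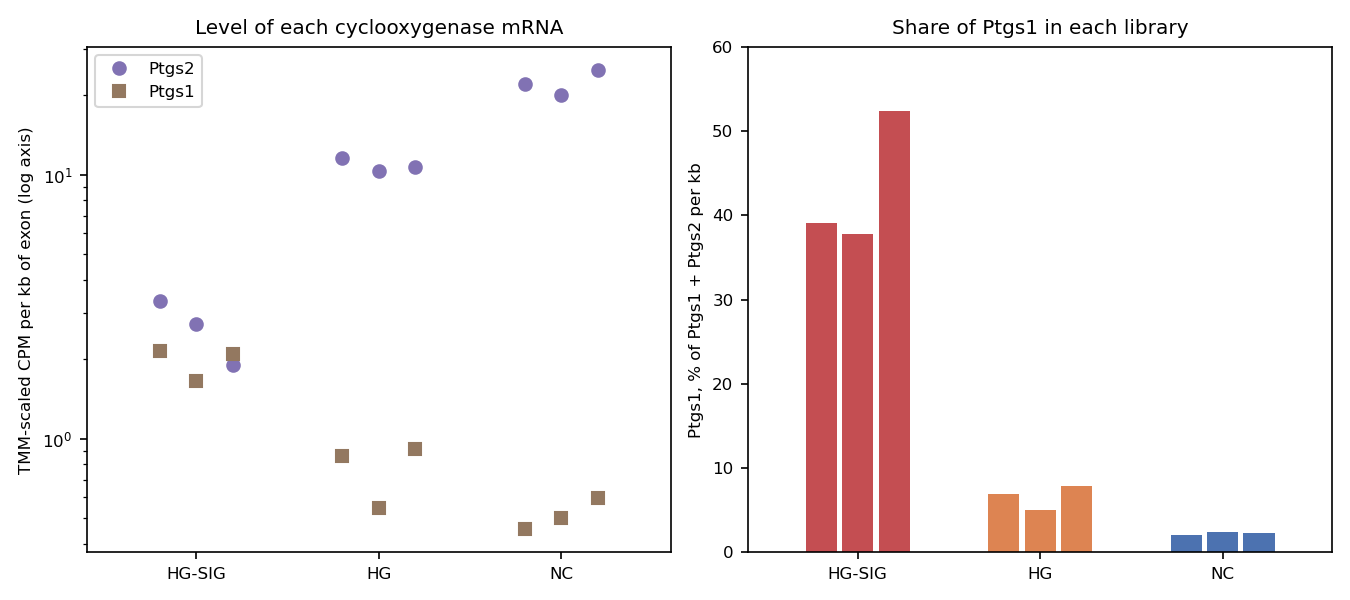
Left, Ptgs2 and Ptgs1 in each library as TMM-scaled CPM per kb of exon, on a log axis. Right, Ptgs1 as a percentage of the sum of both per kb, in each library: 37.8% to 52.4% in HG-SIG, 5.02% to 7.90% in HG and 2.02% to 2.44% in NC.

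The promoter sequences of 4 members are given because these genes moved differently: Ptgs2 and Ptges lower in each comparison, Ptgs1 higher in both comparisons of HG-SIG, and Alox5 higher in HG. Each runs 5′ to 3′ on the gene's strand from 250 bases before to 50 bases after the RefSeq start (GRCm38.p6, the assembly of mm10), and capitals mark matches to the motifs searched.
Ptgs2, chr1:150099781-150100080, plus strand: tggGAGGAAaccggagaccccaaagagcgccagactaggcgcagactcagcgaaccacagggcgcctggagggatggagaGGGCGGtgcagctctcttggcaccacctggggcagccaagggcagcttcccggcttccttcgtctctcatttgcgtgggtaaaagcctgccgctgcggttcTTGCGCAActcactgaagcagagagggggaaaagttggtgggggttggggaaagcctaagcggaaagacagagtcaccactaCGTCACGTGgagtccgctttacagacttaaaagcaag
Ptges, chr2:30903248-30903547, minus strand: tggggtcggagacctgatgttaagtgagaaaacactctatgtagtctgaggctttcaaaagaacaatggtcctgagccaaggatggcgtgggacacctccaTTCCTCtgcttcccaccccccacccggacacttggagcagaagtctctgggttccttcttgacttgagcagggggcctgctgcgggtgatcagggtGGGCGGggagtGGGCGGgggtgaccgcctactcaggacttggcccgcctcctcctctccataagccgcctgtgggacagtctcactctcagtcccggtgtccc
Ptgs1, chr2:36230176-36230475, plus strand: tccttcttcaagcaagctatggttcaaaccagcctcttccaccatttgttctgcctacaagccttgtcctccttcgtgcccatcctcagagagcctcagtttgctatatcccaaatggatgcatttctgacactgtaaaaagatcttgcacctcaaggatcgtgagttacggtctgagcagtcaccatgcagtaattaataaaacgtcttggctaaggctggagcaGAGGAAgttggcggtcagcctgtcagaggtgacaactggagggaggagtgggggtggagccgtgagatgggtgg
Alox5, chr6:116461129-116461428, minus strand: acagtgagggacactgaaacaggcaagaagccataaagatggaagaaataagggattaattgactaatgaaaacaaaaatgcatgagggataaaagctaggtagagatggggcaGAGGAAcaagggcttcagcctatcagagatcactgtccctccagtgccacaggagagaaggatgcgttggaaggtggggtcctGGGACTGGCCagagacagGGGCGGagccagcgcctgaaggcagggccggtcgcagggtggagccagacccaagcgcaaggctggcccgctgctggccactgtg
Motifs were searched on both strands. The C/EBP motif, TTGCGNAA, was found in the Ptgs2 window 69 to 62 bases before the start, read on both strands, and 0.798% of 32817 promoters of this length hold it. The core of the cyclic AMP response element (CRE) was searched as CGTCA, which 20.8% of promoters hold, and matched the Ptgs2 window at bases 14 to 18 after the start. An E-box, CACGTG, held by 7.15% of promoters, shares bases with that CRE match at 17 to 22. The GC box, GGGCGG, held by 35.6% of promoters, was found once in the Ptgs2 and Alox5 windows and 2 times in that of Ptges, whose RefSeq start lies inside the longer annotated span of the gene. The core of the PU.1 motif, GAGGAA, held by 28.3% of promoters, was found in all 4 windows. It was the single match in the Ptgs1 window, 24 to 19 bases before the start. An NF-kB motif of GGGA with CC after any 4 further bases, held by 20.7% of promoters, was found in the Alox5 window. The AP-1 motif, TGANTCA, which 7.81% of promoters hold, matched none of the 4 windows, and neither did a TATA box searched as TATAAA, which 13.6% hold. A match is only a run of letters, and binding was not measured.

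The prostaglandin E synthases differed from each other. Ptges (ENSMUSG00000050737, chromosome 2, 30889471 to 30929863, minus strand), the inducible microsomal synthase that works with COX-2, had 23, 11 and 18 counts in HG-SIG, 51, 39 and 32 in HG, and 143, 95 and 102 in NC. In CPM these were 0.726, 0.353 and 0.537 in HG-SIG, 1.78, 1.53 and 1.41 in HG, and 4.75, 3.92 and 3.41 in NC, with no overlap between any 2 groups. Ptges fell in each comparison, with log2 fold changes of -1.54 ± 0.26 in HG-SIG against HG (adjusted p = 3.1e-04), -1.35 ± 0.20 in HG against NC (2.6e-04) and -2.89 ± 0.23 in HG-SIG against NC, 7.42-fold lower (3.1e-07). With limma on log2(TPM + 1), which understates low genes, these were -0.61, -0.88 and -1.49, each still called.

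Ptges2 (ENSMUSG00000026820, chromosome 2, 32395896 to 32405772, plus strand), a membrane-associated synthase, had 23.7, 23.1 and 23.5 CPM in HG-SIG, 25.4, 25.9 and 24.3 CPM in HG, and 20.1, 21.96 and 19.9 CPM in NC. It rose in HG against NC by 0.29 ± 0.05 (adjusted p = 0.00142) and in HG-SIG against NC by 0.19 ± 0.05 (0.0100), or 0.38 when scaled by library size alone. Both HG-SIG and HG lay above all NC libraries. In HG-SIG against HG the log2 fold change was -0.11 ± 0.05 (adjusted p = 0.117, 95% interval -0.22 to 0.01), and it was 0.06 when scaled by library size alone. Ptges3 (ENSMUSG00000071072, chromosome 10, 128058954 to 128077272, plus strand), the cytosolic synthase that is also the HSP90 cochaperone p23, had 316, 322 and 313 CPM in HG-SIG, 342, 350.0 and 310 CPM in HG, and 328, 328 and 326 CPM in NC. HG replicate 3 lay below every NC library and HG replicates 1 and 2 above them. No comparison of Ptges3 passed: -0.08 ± 0.04 in HG-SIG against HG (adjusted p = 0.158), 0.03 ± 0.04 in HG against NC (0.649) and -0.05 ± 0.04 in HG-SIG against NC (0.383). Its direction depended on the scaling, with 0.09 in HG-SIG against HG and 0.14 in HG-SIG against NC (adjusted p = 0.00620) by library size alone. Without HG replicate 3 it was called lower in HG-SIG than in HG (-0.12, adjusted p = 0.00906). A processed pseudogene, Ptges3-ps, matches 480 bases of its transcript at 100% identity, so its counts may hold reads of that copy.

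Hpgds (ENSMUSG00000029919, chromosome 6, 65117293 to 65144908, minus strand), the haematopoietic prostaglandin D synthase, had 29.7, 29.0 and 28.0 CPM in HG-SIG, 52.1, 55.4 and 51.6 CPM in HG, and 37.2, 39.5 and 37.7 CPM in NC. The groups did not overlap, with HG highest and HG-SIG lowest. Hpgds fell in HG-SIG against HG (-0.88 ± 0.05, adjusted p = 9.8e-09), rose in HG against NC (0.48 ± 0.05, 5.0e-06) and fell in HG-SIG against NC (-0.40 ± 0.05, 1.0e-05). The last value was -0.21 when scaled by library size alone and -0.15 with limma on log2(TPM + 1), both called. Mast cells and basophils also express Hpgds: of 9 of their markers 2 had values here. Tpsab1 had 1 count in HG-SIG, 0 in HG and 2 in NC, and Hdc had 29 in HG-SIG, 11 in HG and 43 in NC. The summed level of both was 0.257 to 0.358 CPM in HG-SIG, 0.0880 to 0.174 CPM in HG and 0.365 to 0.736 CPM in NC, against 28.0 CPM or more for Hpgds in every library.

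Tbxas1 (ENSMUSG00000029925, chromosome 6, 38875404 to 39084585, plus strand), the thromboxane A synthase, was the lowest of the 10 per kb of exon in each group. It had 24, 22 and 21 counts in HG-SIG, 33, 37 and 31 in HG, and 48, 36 and 45 in NC, or 0.757, 0.707 and 0.626 CPM in HG-SIG, 1.15, 1.45 and 1.36 CPM in HG, and 1.59, 1.49 and 1.51 CPM in NC. All HG-SIG libraries lay below both other groups. It fell in HG-SIG, with log2 fold changes of -0.92 ± 0.21 against HG (adjusted p = 0.00257) and -1.13 ± 0.20 against NC (3.7e-04). HG against NC gave -0.22 ± 0.19 (adjusted p = 0.442), with a 95% interval of -0.63 to 0.20. With limma on log2(TPM + 1) the values of HG-SIG were -0.19 against HG and -0.25 against NC, both called.

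In the leukotriene branch, Alox5 (ENSMUSG00000025701, chromosome 6, 116410077 to 116461178, minus strand), the 5-lipoxygenase, stood highest in HG. It had 28.7, 27.5 and 27.4 CPM in HG-SIG, 50.4, 50.1 and 49.4 CPM in HG, and 24.3, 27.2 and 26.5 CPM in NC. HG was set apart from both other groups, while the HG-SIG libraries lay just above those of NC. Alox5 fell in HG-SIG against HG (log2 fold change -0.84 ± 0.05, adjusted p = 2.0e-08) and rose in HG against NC (0.95 ± 0.05, 1.93-fold, 1.7e-08), the highest rise of the 10 genes in that comparison. HG-SIG against NC gave 0.10 ± 0.05 (adjusted p = 0.0990), with a 95% interval of -0.01 to 0.21. Scaled by library size alone it gave 0.29 (adjusted p = 1.8e-04), where the median of all genes was also 0.19 higher than with TMM. Limma on log2(TPM + 1) gave 0.32 (9.0e-05), with a median 0.20 higher.

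Alox5ap (ENSMUSG00000060063, chromosome 5, 149264767 to 149288153, plus strand), the protein that presents arachidonic acid to 5-lipoxygenase, had 94.2, 91.4 and 89.9 CPM in HG-SIG, 121, 115 and 110 CPM in HG, and 116, 116 and 115 CPM in NC. HG spread around NC on both sides, and HG-SIG lay below both. Alox5ap fell in HG-SIG, with log2 fold changes of -0.33 ± 0.04 against HG (adjusted p = 2.0e-05) and -0.34 ± 0.04 against NC (1.0e-05). By library size alone these were -0.17 and -0.15, and with limma on log2(TPM + 1) they were -0.12 and -0.10, each still called. HG against NC gave -0.01 ± 0.04 (adjusted p = 0.901), and 0.021 by library size alone. The antisense gene Gm19719 overlaps 13.3% of the exonic length of Alox5ap and had 461 counts over the 9 libraries. Without a known strand setting, reads of the pair cannot be told apart there. The same limit holds for smaller overlaps on the opposite strand in 2 of the scarce members. Gm43621 shares 3.81% of the exonic length of Ptgs1, and Gm42962 shares 1.58% of that of Tbxas1.

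**Figure D3:**
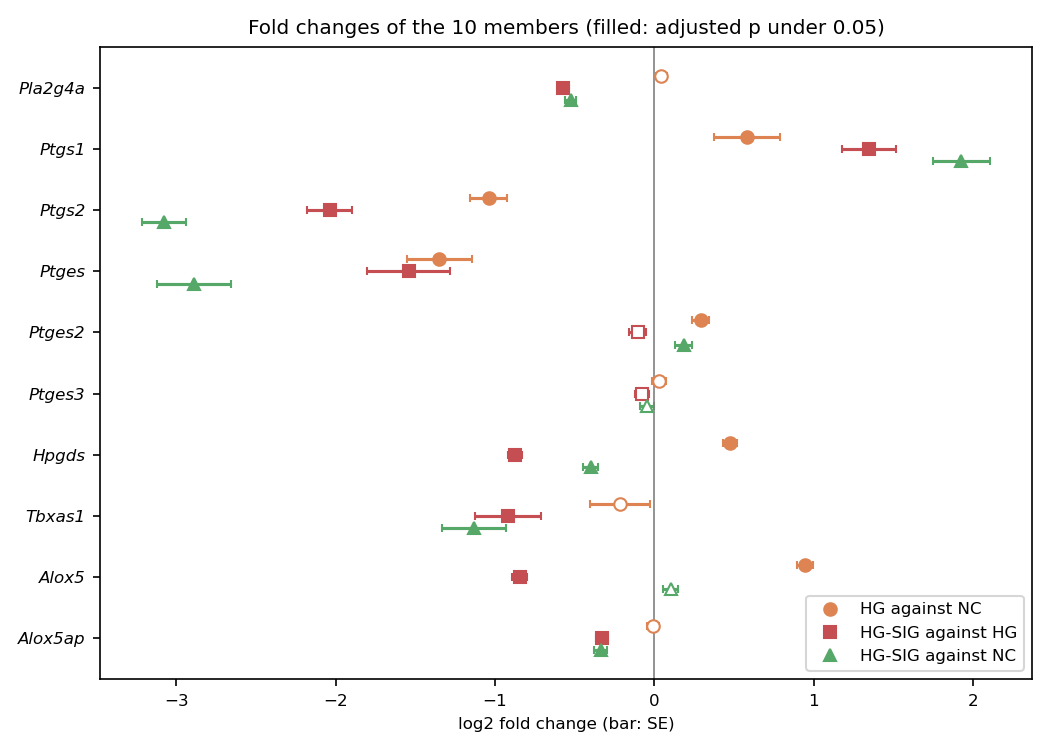
Log2 fold changes of the 10 genes (x axis, bars are SE) in the 3 comparisons, filled where the adjusted p was under 0.05. Ptgs1 lies right of 0 in all 3 comparisons and Ptgs2 and Ptges left of it. Alox5 and Hpgds lie right in HG against NC (0.95 and 0.48) and left in HG-SIG against HG (-0.84 and -0.88).

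Ordered by level per kb of exon, Ptges3 was the highest of the 10 in each group (143 ± 2.09 CPM per kb in HG-SIG, 151 ± 9.41 in HG and 148 ± 0.541 in NC), followed by Alox5ap (64.7 ± 1.54 in HG-SIG, 81.2 ± 3.76 in HG and 81.7 ± 0.512 in NC) and Pla2g4a (31.9 ± 0.831 in HG-SIG, 47.4 ± 0.877 in HG and 46.0 ± 0.343 in NC). In HG-SIG the next levels were those of Alox5 (6.79 CPM per kb), Ptges2 (4.64), Hpgds (4.500) and then Ptgs2 (2.65), in HG those of Alox5 (12.2) and then Ptgs2 (10.9), and in NC that of Ptgs2 (22.3). In HG-SIG the neighbours Ptges2 (4.57 to 4.69 CPM per kb) and Hpgds (4.35 to 4.63) overlapped, and so did Ptgs2 (1.91 to 3.33) and Ptgs1 (1.65 to 2.15). In NC Alox5 and Hpgds, the next after Ptgs2, overlapped too. Ptges and Tbxas1 had 0.137 ± 0.0474 and 0.0766 ± 0.00727 CPM per kb in HG-SIG, 0.400 ± 0.0477 and 0.145 ± 0.0171 in HG, and 1.02 ± 0.171 and 0.168 ± 0.00630 in NC. These levels rest on all annotated exons of a gene, so a shorter transcript in use would read as a lower level.

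Genes around the pathway were taken from 6 lists that held 92 symbols, of which 78 rows were in the table and 56 were tested. Of 15 other phospholipases and genes of arachidonate supply, 5 rose and 3 fell in HG-SIG against HG, and 4 rose and 5 fell in HG against NC (medians -0.01 and -0.08). In HG-SIG against NC 3 rose and 6 fell. Called were 53.3%, 60% and 60% of these in HG-SIG against HG, HG against NC and HG-SIG against NC. Over all genes the shares were 52.5%, 29.5% and 58.6%. The desaturase genes Fads1 and Fads2, which build arachidonic acid from shorter precursors, fell in HG-SIG against HG (-0.93 ± 0.04 and -0.77 ± 0.03, adjusted p = 5.3e-10 and 1.7e-09). Abhd6, a monoacylglycerol lipase, rose by 0.78 ± 0.07 in HG-SIG against HG (8.7e-07) and by 0.54 ± 0.07 in HG against NC (1.2e-04). The lysosomal phospholipase Pla2g15 rose in HG-SIG against HG (0.38) and the secreted Pla2g5 fell in HG against NC (-0.69). Pla2g4b, a relative of Pla2g4a, had 43 counts in HG-SIG, 4 in HG and 24 in NC, with log2 fold changes of 3.0 ± 0.59 in HG-SIG against HG (9.9e-04) and -2.37 ± 0.65 in HG against NC (0.0154). The last call was lost without HG replicate 1 (-2.13, 0.0629) and with limma (-0.17, 0.0934), and without HG replicate 2 the value was -3.62. The first was 0.33 with limma, 4.25 without HG replicate 2 and 2.53 without HG replicate 3, each still called.

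Of 10 other genes of prostaglandin synthesis, turnover and transport, 3 rose and 3 fell in HG-SIG against HG, and 4 rose and 1 fell in HG against NC (medians -0.03 and 0.20). In HG-SIG against NC 3 rose and 2 fell. Called were 60%, 50% and 50% of these in HG-SIG against HG, HG against NC and HG-SIG against NC. All genes gave 52.5%, 29.5% and 58.6%. Hpgd, the dehydrogenase that inactivates prostaglandins, had a mean of 1.47 ± 0.153 CPM in HG-SIG, 5.91 ± 1.06 CPM in HG and 2.77 ± 0.102 CPM in NC. It fell in HG-SIG against HG (-2.01 ± 0.15, adjusted p = 3.8e-07) and rose in HG against NC (1.09 ± 0.14, 8.9e-05). Ptgr1, a reductase that degrades prostaglandins and leukotriene B4, rose by 0.77 ± 0.09 in HG-SIG against HG (1.1e-05). The carbonyl reductase gene Cbr1 rose in both comparisons (0.26 in HG-SIG against HG and 0.34 in HG against NC), while the aldo-keto reductase gene Akr1b8 fell in both, with -1.29 ± 0.06 in HG-SIG against HG (3.3e-09) and -0.40 ± 0.06 in HG against NC (1.5e-04). The prostacyclin synthase Ptgis had at most 2 counts in any group, which allows no comparison, and Ptgds, the other prostaglandin D synthase, was not analysed here.

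Of 8 other leukotriene and lipoxygenase genes, 1 rose and 5 fell in HG-SIG against HG (75% called, against 52.5% of all genes). In HG against NC 1 rose and 3 fell (50%, against 29.5% of all genes), with medians of -0.23 and 0.08. In HG-SIG against NC 2 rose and 5 fell (87.5%, against 58.6% of all genes). Lta4h, the hydrolase that makes leukotriene B4, had 71.5 ± 1.66 CPM in HG-SIG, 64.2 ± 3.85 CPM in HG and 59.4 ± 2.29 CPM in NC. It rose in HG-SIG against HG by 0.15 ± 0.05 (adjusted p = 0.0156), a call lost without HG-SIG replicate 1 (0.0578), and in HG-SIG against NC by 0.27 ± 0.05 (3.6e-04). By library size alone these were 0.32 and 0.46, and with limma 0.35 and 0.49. Ltc4s, the leukotriene C4 synthase, had 168 counts in HG-SIG, 121 in HG and 97 in NC, and passed only in HG-SIG against NC (0.59 ± 0.23, 0.0383), where it was lost with DESeq2 (0.0813) and without HG-SIG replicate 1 (0.123) or 3 (0.115) and NC replicate 2 (0.0679) or 3 (0.133). Mgst2, which can also make leukotriene C4, fell in HG-SIG against HG (-0.50 ± 0.06, 2.1e-05, and -0.28 with limma). Abcc1, a leukotriene C4 exporter, and Dpep2, a dipeptidase that converts leukotriene D4 to E4, fell in both comparisons. In HG-SIG against HG they gave -0.42 and -0.71, and in HG against NC -0.62 and -0.61. Cotl1, a partner of 5-lipoxygenase, also fell in both (-0.21 and -0.41). The 12- and 15-lipoxygenase genes Alox12 and Alox15 had at most 10 counts in any group and were below the filter.

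Among the prostanoid receptors 5 of 9 were tested, of which 0 rose and 3 fell in HG-SIG against HG, and 0 rose and 1 fell in HG against NC (medians -0.33 and 0.02). In HG-SIG against NC 0 rose and 3 fell. Called were 60%, 20% and 60% of the 5 in HG-SIG against HG, HG against NC and HG-SIG against NC. All genes gave 52.5%, 29.5% and 58.6%. Without HG replicate 1 the count called in HG-SIG against HG was 1, and without HG-SIG replicate 1 or NC replicate 3 that in HG against NC was 2. Ptgir, the prostacyclin receptor, had 76 counts in HG-SIG, 102 in HG and 224 in NC, and fell in HG-SIG against HG (-0.73 ± 0.23, adjusted p = 0.0159) and in HG against NC (-1.02 ± 0.20, 0.00193). The first of these was lost without HG replicate 1 (-0.53, adjusted p = 0.0891). Ptger4, the prostaglandin E2 receptor with the most counts here, had 12.7 ± 0.0886 CPM in HG-SIG, 16.0 ± 0.338 CPM in HG and 14.8 ± 0.830 CPM in NC. It fell in HG-SIG against HG (-0.33 ± 0.06, 6.2e-04), by library size alone the value was -0.17 (0.0329), and it did not pass with limma (-0.11, 0.133). Ptger2 had 23 counts in HG-SIG, 40 in HG and 83 in NC. It fell in HG-SIG against NC (-2.03 ± 0.39, adjusted p = 5.9e-04), a call kept in every alternative, with -0.46 by limma. In HG against NC Ptger2 gave -0.93 ± 0.35 (0.0665), which passed in some alternatives (lowest adjusted p = 0.0405). Its call in HG-SIG against HG (-1.11 ± 0.43, 0.0458) was lost in 11 of 16 alternatives, among them DESeq2 (0.0674) and leaving out HG-SIG replicate 2 (0.125) or 3 (0.166), any HG library (0.0771 to 0.104) and NC replicate 1 (0.0612) or 2 (0.0530), and without HG-SIG replicate 1 the value was -1.72. Of the leukotriene and lipoxin receptors only Cysltr1 was tested, and it passed in neither comparison (-0.07 ± 0.10 in HG-SIG against HG and -0.17 ± 0.10 in HG against NC, adjusted p = 0.607 and 0.247). Ltb4r1, the leukotriene B4 receptor, had at most 7 counts in any group.

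Of 17 genes that act upstream of Ptgs2 transcription, of its mRNA or of cytosolic phospholipase A2, 2 rose and 7 fell in HG-SIG against HG, and 0 rose and 9 fell in HG against NC (medians -0.07 and -0.29), while in HG-SIG against NC 2 rose and 10 fell. Called were thus 52.9%, 52.9% and 70.6% of the 17 in HG-SIG against HG, HG against NC and HG-SIG against NC. Over all genes the shares were 52.5%, 29.5% and 58.6%. With limma on log2(TPM + 1) the count called in HG-SIG against HG was 14. Cebpb, whose family binds the C/EBP motif, had 20.9 ± 4.12 CPM in HG-SIG, 31.96 ± 2.86 CPM in HG and 57.1 ± 5.44 CPM in NC. It fell in HG-SIG against HG (-0.62 ± 0.12, adjusted p = 8.8e-04) and in HG against NC (-0.83 ± 0.11, 9.9e-05). The AP-1 subunit gene Fos fell in HG-SIG against HG (-1.19 ± 0.17, 7.9e-05) and gave -0.38 ± 0.16 in HG against NC (0.0888). Anxa1, an inhibitor of phospholipase A2, fell in HG-SIG against HG (-0.82 ± 0.05, 5.4e-08) and in HG against NC (-0.46 ± 0.05, 1.9e-05). Nfkb1, Atf4 and Cebpd fell in HG against NC (-0.54, -0.51 and -0.59), and so did Zfp36, whose product destabilizes mRNA (-0.36). In HG-SIG against HG, Cebpd, of the same family as Cebpb, gave 0.003 (adjusted p = 0.978). There Nfkb1 gave -0.10 (0.0264), Atf4 -0.42 (2.0e-06) and Zfp36 -0.28 (0.0715). Egr1 rose in HG-SIG against HG (0.82 ± 0.15) and fell in HG against NC (-1.11 ± 0.15). The kinase gene Mapk14, Creb1, Rela and the mRNA stabilizer gene Elavl1 had log2 fold changes of -0.04 to 0.01 in HG against NC, none of which passed. Mapk14 rose in HG-SIG against HG (0.14, adjusted p = 0.0128) and against NC (0.15, 0.00970). In HG-SIG against HG, Creb1, Rela and Elavl1 gave 0.07, 0.09 and 0.07, which did not pass.

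**Figure D4:**
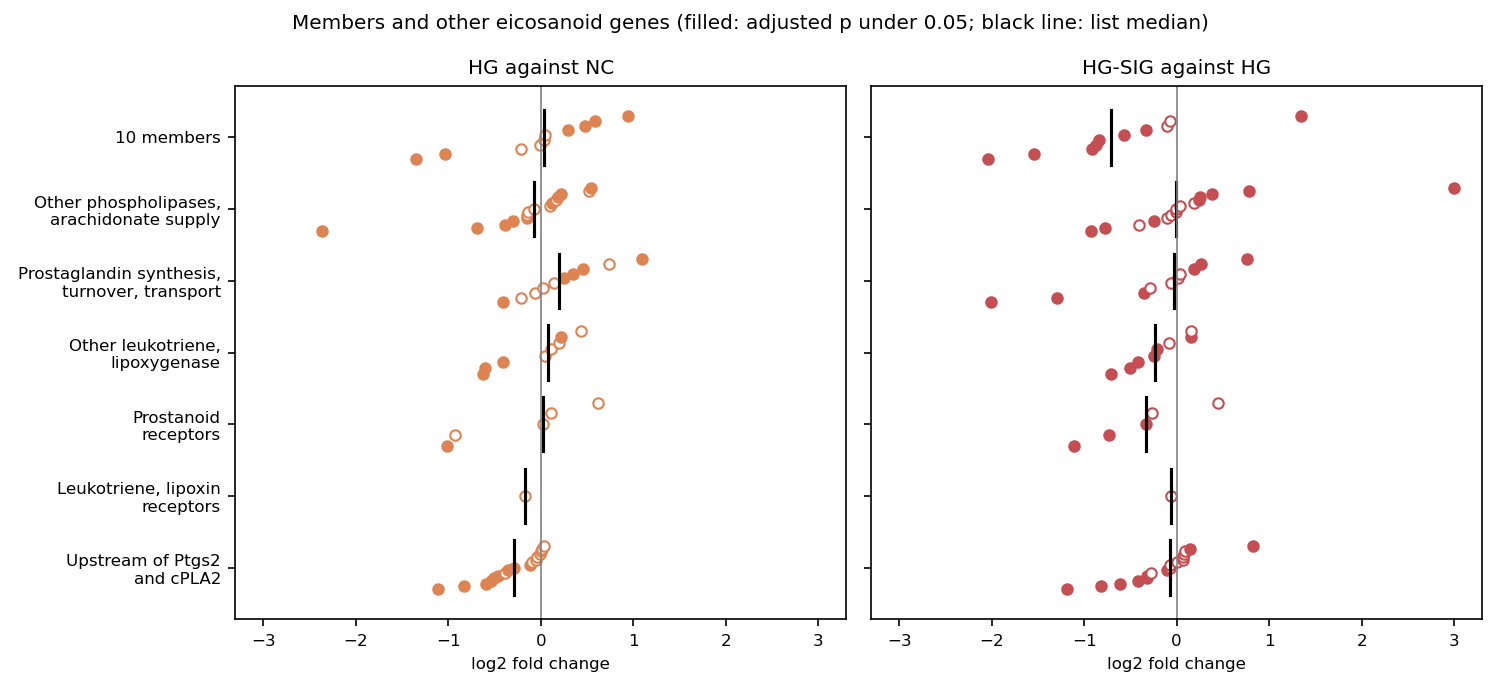
Log2 fold changes (x axis) of the 10 members and of the tested genes of the 6 lists (rows), in HG against NC on the left and HG-SIG against HG on the right. Each point is a gene, filled where the adjusted p was under 0.05, and the black line is the median of the row. The median of the members is 0.04 on the left and -0.71 on the right, and the point at 3.0 on the right is Pla2g4b.

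By Pearson's r of log2 CPM over the 9 libraries, searched over 12124 named genes, the genes most like Ptgs2 were Vim (0.994), Hspb7 (0.993) and Ptpn6 (0.993). Those most like Ptgs1 were Cbx6 (0.992), Homez (0.989) and Habp4 (0.986), and those most like Alox5 were Gucy2g, Tfdp1 and Kifc3 (0.989 each). The points share 3 groups, so r mostly reflects the group means and is given as a description. It exceeded 0.95 for 603 genes with Ptgs2, 204 with Ptgs1 and 62 with Alox5.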

How the data were processed

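Polyadenylated RNA of 9 RAW264.7 libraries was sequenced, 3 per group, with random hexamer priming after oligo(dT) selection, per the labels' protocols. Sample titles gave the group and the replicate number. The table that the authors deposited holds raw gene counts. Bowtie2 2.3.5, RSEM and mm10 are named in the submitters' processing notes, with no annotation release or strand setting. Nothing in the labels says that replicates were separate cultures, so the p-values measure only how these samples vary, and that variation may be technical.

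The deposited counts were filtered with filterByExpr by group (13311 of 20627 features left), scaled with TMM and fitted in edgeR 4.0.16 (R 4.3.3) as 1 model with 3 group means. Adjusted p-values are Benjamini-Hochberg over all genes tested. Intervals are 95% intervals of the log2 fold change. Exon lengths and coordinates came from GENCODE M21 and promoters from RefSeq (GRCm38.p6). Of the members 10 matched the annotation and 9 a promoter (all but Alox5ap). The members and lists were chosen with earlier results of these data known. Named beyond the members were list genes called with an absolute log2 fold change of at least 0.5 in any comparison, 6 genes named whatever their result, and the 3 genes most like Ptgs1, Ptgs2 and Alox5. Other genes named without a call, and the markers, were chosen after their values were seen. Alternatives were RLE scaling, library size alone, no filter, DESeq2 1.42.0, limma 3.58.1 on log2(TPM + 1), with TPM computed from the counts and exon lengths, fits of only the groups compared, fits with a replicate block, and each library left out. The code was tested on simulated data.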

Additional observations from a re-analysis of the deposited data

How the results depend on the processing

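Over 16 alternative settings, 458 of 480 fold changes of the 10 members kept their direction and their side of the threshold, 9 lost the call (all of them Ptgs1 in HG against NC), 3 gained one and 10 changed sign, the sign changes all in Ptges2, Ptges3 or Alox5ap where no call had been made. By library size alone the values with changed sign were 0.021 for Alox5ap in HG against NC, 0.056 for Ptges2 and 0.086 for Ptges3 in HG-SIG against HG, and 0.14 for Ptges3 in HG-SIG against NC. With limma on log2(TPM + 1) they were 0.022 for Alox5ap, 0.095 for Ptges2, 0.13 and 0.19 for Ptges3 (the last pair called, adjusted p = 0.00447 and 3.0e-04). Leaving out 1 library, HG against NC ranged over -0.0045 to 0.076 for Ptges3 and -0.044 to 0.019 for Alox5ap, with the sign changes without HG replicate 2 and HG replicate 3. The causes were not tested. Of 1022 values of other named genes 975 were unchanged in direction and call. The single sign change among them was Ptger4 in HG-SIG against NC, a called fall (-0.22, adjusted p = 0.00749) that was 0.018 with limma (0.802), and -0.030 by library size alone (0.686).

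Members called numbered 5 to 6 in HG against NC, 8 to 9 in HG-SIG against HG and 8 to 10 in HG-SIG against NC. Library size alone raised the median of all genes by 0.16 in HG-SIG against HG and 0.19 in HG-SIG against NC, where 76.9% and 76.2% of calls were higher, against 48.9% and 51.0% with TMM. In HG against NC they were 58.9% and 48.4%. Leaving out 1 library, the log2 ratio of Ptgs2 to Ptgs1 differed by -3.59 to -3.17 between HG-SIG and HG, -1.79 to -1.45 between HG and NC and -5.19 to -4.76 between HG-SIG and NC, while the genes called numbered 6193 to 7147, 3062 to 4000 and 7106 to 8191 in the same comparisons.

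Replicate numbers are shared across groups, and same-numbered libraries deviated together at most weakly. Their r was -0.00 to 0.10 (0 of 9 pairs over 0.1), against -0.08 to 0.04 in the 18 pairs of different number. Of the 9 libraries, 8 correlated best with their own number, and the main fit leaves this out. With a replicate block, 7563 genes were called in HG-SIG against HG, 4663 in HG against NC and 8282 in HG-SIG against NC, and the members called remained 8, 6 and 8, with 0 calls changed. Within pairs the ratio of Ptgs2 to Ptgs1 differed by the same -3.44, -1.60 and -5.03 (p = 0.25 by exact sign permutation, the smallest that 3 pairs allow). Depth limits Ptges and Tbxas1, with 52 and 67 counts in the HG-SIG libraries. A floor of 3 counts was 0.095 to 0.129 CPM per library, counting error only.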
